A study of Mus musculus with 6 samples.

Results

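The genes described here are 10 genes of heart muscle, Myh6, Myh7, Myl4, Myl7, Actc1, Tnnt2, Tnni3, Sln, Pln and Nppa, read in whole mouse lung. They were taken by name, each through its brightest probe set on average, out of 12393 genes with a probe set of a single symbol, and all 10 had such a probe set. RNA was measured on 6 Affymetrix MOE430A arrays, one for each mouse, 3 from mice given bleomycin (D, E and F) and 3 from mice given saline (A, B and C). Bleomycin, a DNA-damaging drug used to model lung fibrosis, was given once at 1 mg/kg in 50 µl of saline, and the other mice received saline alone. The treatment protocol names the oropharyngeal route and the source labels the intratracheal one. Every mouse is labelled as a wild-type C57BL/6J male of 8 to 10 weeks, and lungs were taken at day 14. Per the design text, the large airways were cut away and the remaining lobes were frozen and powdered before extraction, so each value is an average over the cells of the lung.

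In the mouse, a sleeve of striated heart muscle continuous with the left atrium runs along the pulmonary veins into the lung, so a lung sample can carry transcripts of cardiac muscle. These cells contract with a sarcomere of thick filaments (myosin heavy and light chains) and thin filaments (actin and troponins), and they resemble atrial muscle in their light chains and hormones. Calcium released from the sarcoplasmic reticulum starts contraction, and a pump that sarcolipin and phospholamban restrain takes it back.

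Expression values are log2 units of RMA, which condenses the probes of each probe set to one number. Markers of lung cells were present on every array: Sftpb, a surfactant protein gene of alveolar type 2 cells, stood at 12.12 to 12.41 in bleomycin lungs and at 12.06 to 12.90 in saline lungs. Bleomycin D scored 44.3 on the first principal component, against 12.9 and 19.8 for the other bleomycin arrays and -28.6 to -21.4 for the saline arrays. Saline B went against its label of a male mouse: Xist stood at 11.40 there and at 7.23 to 7.88 on the other arrays, and the Y-linked gene Eif2s3y at 4.05 against 7.23 to 8.02. Results are therefore also given without bleomycin D and without saline B. Array precision is limited by the 3 mice in each group.

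All 10 cardiac muscle genes had a lower mean in bleomycin lungs than in saline lungs, but only Myh7 passed the test. Of all genes, 57.0% had a lower mean. The median difference (bleomycin minus saline) of the 10 genes was -0.66 log2 units, against -0.04 over all genes. In limma, with Benjamini-Hochberg adjustment over all 22626 probe sets and a threshold of 0.05, 1 of the 10 was lower and 0 were higher, where 5.60% of all genes passed, 1.90% as lower and 3.70% as higher. At an unadjusted p under 0.05, 5 of the 10 were lower (Myh6, Myh7, Actc1, Tnni3 and Myl7), against 11.0% of all genes. The 3 bleomycin arrays lay wholly below the 3 saline arrays for 1 of the 10, Myh7, against 14.6% of all genes, and wholly above them for 0 of the 10, against 13.3%. The 10 genes varied largely together, so these counts are not of independent results. Over the arrays, Pearson's r of each gene with the mean of the others ran from 0.57 (Nppa) to 0.98 (Tnni3). In bulk tissue, fewer cardiac muscle cells in a sample, for whatever reason, and less of these transcripts in each cell cannot be told apart. The plot of single arrays shows these values gene by gene, and the plot of differences shows their intervals.

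**Figure D1:**
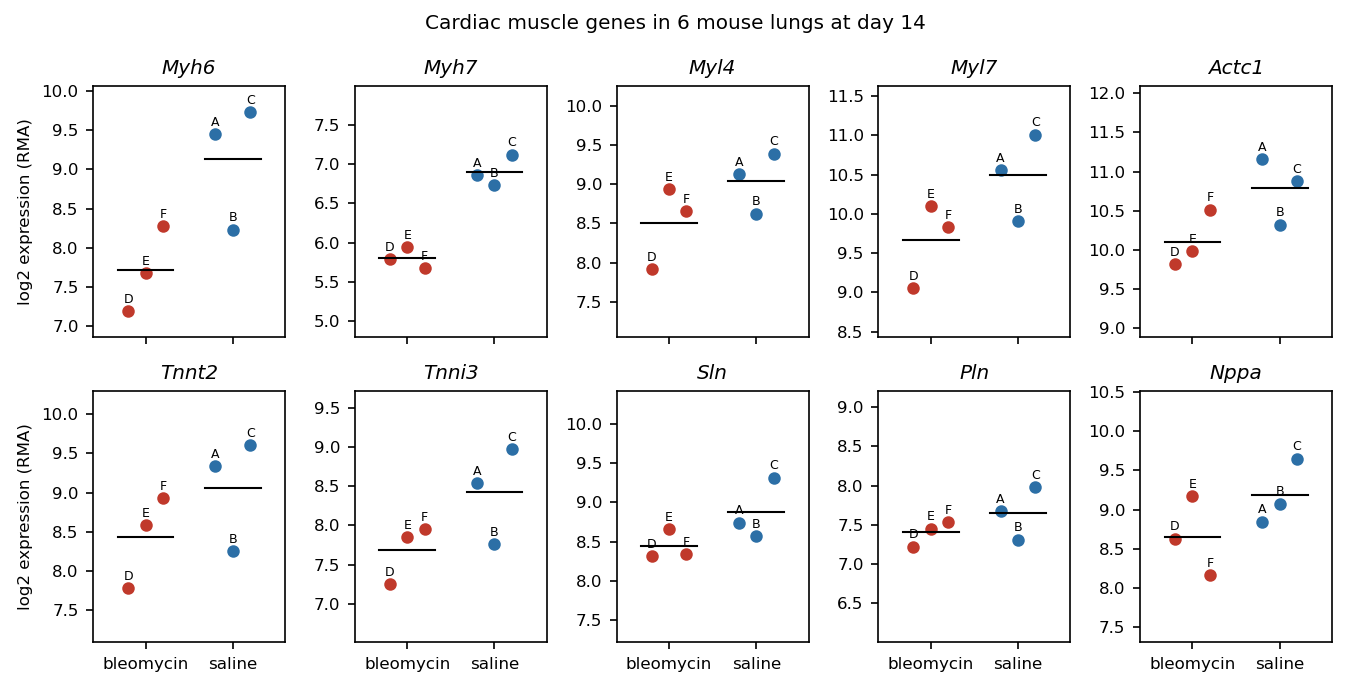
Log2 expression (RMA) of the 10 cardiac muscle genes on each of 6 arrays, bleomycin (D, E, F, red) on the left and saline (A, B, C, blue) on the right, with each group's mean as a black line and the same axis length of log2 units in every panel. Only Myh7 has all bleomycin arrays below all saline arrays, and saline B is the lowest saline array in 9 of the 10 panels.

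**Figure D2:**
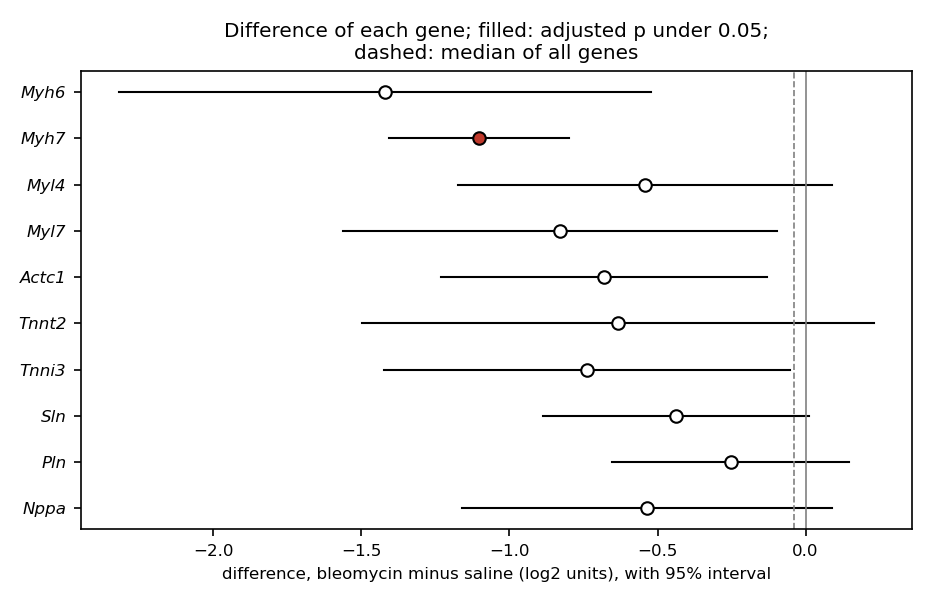
Difference of each gene between bleomycin and saline lungs (log2 units, point) with its 95% interval from limma (line), 3 mice per group. Myh7 alone is filled (adjusted p under 0.05), all 10 points lie below 0, and the dashed line marks the median of all genes, -0.04.

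The thick filament genes held both the difference that passed and the largest difference. Myh7, which encodes the slow beta myosin heavy chain of the embryonic mouse ventricle and of slow skeletal fibres, read 5.79, 5.94 and 5.67 in bleomycin lungs D, E and F and 6.86, 6.73 and 7.12 in saline lungs A, B and C. The groups were separated by 0.79 log2 units between the highest bleomycin and the lowest saline array. Myh7 averaged 5.80 ± 0.13 in bleomycin lungs and 6.91 ± 0.20 in saline lungs (SD, n = 3 each), and so fell by 1.10 ± 0.13 log2 units (SE, 95% interval -1.41 to -0.80, limma adjusted p = 0.0042), to 0.465 times the saline level. The call held in each of the 12 other fits, with adjusted p between 0.00178 and 0.0285, including those without saline B (0.00854) and without bleomycin D (0.0123). Myh7 was the dimmest of the 10 (mean 6.35). Its 3 bleomycin values lay below 5.98, the level that the filter on dim probe sets applied to means over the 6 arrays. Signal over background was not examined, so how near these values were to background is not known.

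Myh6, which encodes the fast alpha myosin heavy chain of atrium and adult mouse ventricle, read 7.19, 7.68 and 8.28 in bleomycin lungs and 9.45, 8.23 and 9.73 in saline lungs. Saline A and C were the highest arrays, while saline B lay just under bleomycin F, so the groups overlapped. The mean was 7.71 ± 0.54 in bleomycin lungs and 9.14 ± 0.80 in saline lungs (SD, n = 3 each). The difference was -1.42 ± 0.39 log2 units (SE, 95% interval -2.32 to -0.52, limma adjusted p = 0.0811). Without saline B it was -1.87 with adjusted p = 0.0205, and it did not pass in the other 11 fits. A second, dim probe set of Myh6 stayed between 3.80 and 4.10 on all arrays and differed by 0.05 ± 0.12 (SE, adjusted p = 0.858).

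Myh6 and Myh7 encode closely related proteins, and 2 further probe sets are annotated to both genes. The brighter of these read 6.67, 7.01 and 7.36 in bleomycin lungs and 8.55, 7.28 and 8.12 in saline lungs, a difference of -0.97 ± 0.30 log2 units (SE, limma adjusted p = 0.114). The dimmer differed by -0.25 ± 0.19 (SE, adjusted p = 0.471). Both had a lower mean in bleomycin lungs and neither passed. Signal of one heavy chain on probes of the other was not tested.

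Of the myosin light chains typical of atrial muscle, neither passed. Myl7, the atrial regulatory light chain, read 9.05, 10.10 and 9.83 in bleomycin lungs and 10.55, 9.91 and 11.01 in saline lungs. Saline B fell between bleomycin E and F, and saline A and C stood above every bleomycin array. The difference was -0.83 ± 0.32 log2 units (SE, 95% interval -1.56 to -0.10, limma adjusted p = 0.183). Myl4, the atrial essential light chain, read 7.91, 8.94 and 8.66 in bleomycin lungs and 9.12, 8.62 and 9.39 in saline lungs, a difference of -0.54 ± 0.28 (SE, 95% interval -1.17 to 0.09, adjusted p = 0.304). Bleomycin D was the low array in both genes. A dimmer probe set of Myl4 differed by -0.09 ± 0.12 (SE, adjusted p = 0.718).

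The 3 thin filament genes were lower on average and overlapped between groups. Actc1, the cardiac alpha actin, read 9.82, 9.99 and 10.51 in bleomycin lungs and 11.16, 10.32 and 10.88 in saline lungs. Only saline B fell below a bleomycin array, F. The difference was -0.68 ± 0.24 log2 units (SE, 95% interval -1.23 to -0.13, limma adjusted p = 0.152). Tnni3, the cardiac inhibitory troponin, read 7.25, 7.85 and 7.95 in bleomycin lungs and 8.54, 7.76 and 8.97 in saline lungs, a difference of -0.74 ± 0.30 (SE, 95% interval -1.42 to -0.05, adjusted p = 0.2). Tnnt2, the troponin that binds tropomyosin in cardiac muscle, read 7.78, 8.58 and 8.93 in bleomycin lungs and 9.34, 8.25 and 9.60 in saline lungs. Its difference was -0.63 ± 0.38 by the brighter probe set and -0.74 ± 0.34 by the dimmer (SE, adjusted p = 0.376 and 0.261). In both troponin genes saline B lay below bleomycin E and F, while saline A and C lay above all 3 bleomycin arrays.

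Regulators of the calcium pump had the smallest differences among the 10. Sln, which encodes sarcolipin, read 8.32, 8.66 and 8.34 in bleomycin lungs and 8.74, 8.57 and 9.32 in saline lungs, a difference of -0.44 ± 0.20 log2 units (SE, 95% interval -0.89 to 0.01, limma adjusted p = 0.246). Pln, which encodes phospholamban, read 7.22, 7.45 and 7.54 in bleomycin lungs and 7.68, 7.31 and 7.98 in saline lungs by its brightest probe set, a difference of -0.25 ± 0.18 (SE, 95% interval -0.65 to 0.15, adjusted p = 0.447). Its dimmer probe sets differed by -0.45 ± 0.16 each (SE, adjusted p = 0.159 and 0.158), and in both of them all bleomycin arrays lay below all saline arrays. A dimmer probe set of Sln differed by -0.18 ± 0.12 (SE, adjusted p = 0.448).

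Nppa, which encodes the natriuretic hormone that atrial muscle stores and releases on stretch, read 8.63, 9.17 and 8.17 in bleomycin lungs and 8.85, 9.08 and 9.65 in saline lungs. Bleomycin E exceeded saline A and B. The difference was -0.54 ± 0.27 log2 units (SE, 95% interval -1.16 to 0.09, limma adjusted p = 0.303). Its lowest saline array was A, where the other 9 genes had B, and its lowest bleomycin array was F, as for Myh7.

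Mice of the same group differed widely in these genes, and mostly in the same order. Saline C was the highest of the 6 arrays in 9 of the 10 genes (Actc1 was highest in saline A), and bleomycin D was the lowest in 8 (Myh7 and Nppa were lowest in bleomycin F). Saline B was the lowest saline array in 9 genes, all but Nppa. The matching shares over all genes were not counted. On average over the 10 genes, the arrays stood at -0.70, -0.16 and -0.21 log2 units from each gene's own mean in bleomycin D, E and F and at 0.43, -0.12 and 0.77 in saline A, B and C. Saline B lay closer to bleomycin E and F than to saline A and C. The standard deviation within groups was above that of the median gene (0.160) in all 10. It was 0.68 log2 units for Myh6, larger than in 99.6% of all genes, 0.66 for Tnnt2 and 0.55 for Myl7. Myh7, at 0.17, was the exception in size and lay above 54.0% of all genes.

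Single arrays set the size of several differences. Leaving out bleomycin D brought the difference of Tnnt2 to -0.31 log2 units, of Myl4 to -0.25, of Myl7 to -0.53 and of Pln to -0.16. Leaving out saline C brought Tnnt2 to -0.36, Tnni3 to -0.47, Sln to -0.22, Pln to -0.09 and Nppa to -0.31, and leaving out bleomycin F brought Nppa to -0.29. Without saline B the difference was -1.04 for Tnnt2 and -0.43 for Pln. Each of these moved by more than 1.5 times and none passed. Leaving out 1 array moved Myh6, Myh7 and Actc1 by less.

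Measures of RNA integrity and of other cell types also differed between arrays. The 3-prime control probe set of Actb exceeded its 5-prime one on every array, and a larger gap is a sign of less intact RNA. The Actb gap was 1.23, 1.27 and 1.04 log2 units in bleomycin D, E and F. In saline A, B and C it was 1.58, 1.14 and 1.71. For Gapdh the gap was 0.81, 0.98 and 1.10 in bleomycin lungs and 1.46, 0.88 and 1.39 in saline lungs. Saline A and C, the arrays with the highest cardiac values, had the largest gaps by both controls. Bleomycin D, the lowest in most cardiac genes, had the smallest gap by Gapdh. By Actb its gap was larger than those of saline B and bleomycin F. The 10 lung cell markers all had a lower mean in bleomycin lungs, against 57.0% of all genes. Their median difference was -0.23 log2 units, with 0 called (0 at an unadjusted p under 0.05). The largest of these were Cldn5 of endothelial junctions (-0.46), Sftpb (-0.30), the mesenchymal factor Foxf1 (-0.27) and Cldn18 of alveolar epithelium (-0.27). Of 10 macrophage markers, 8 were called higher, against 3.70% of all genes. They were Mmp12, the macrophage elastase (5.23 log2 units), C1qb (3.42), Gpnmb (3.10), C1qc (2.74), Cd68 (2.68), Ms4a7 (2.57), C1qa (2.44) and Adgre1 (1.25). Lyz2 (0.14) and Chil3 (0.26) were not called (limma adjusted p = 0.499 and 0.447), and their groups overlapped. The median level of this list was 10.85 to 11.06 on the bleomycin arrays and 7.81 to 8.28 on the saline arrays, so it separated the groups. The part of RNA integrity, and of RNA from added macrophages, in the cardiac differences was not tested. Without bleomycin D the median difference of the 10 cardiac genes was -0.52 and 1 passed, and without saline B it was -0.98 and 2 passed (Myh6 and Myh7).

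The sequences upstream of 4 of these genes are printed because they carry the heavy chains with the largest differences (Myh6 and Myh7), an atrial light chain (Myl7) and the cardiac actin (Actc1). Of the 10 genes, 9 matched the RefSeq promoter sequences of GRCm38.p6, and Sln did not. Each line gives the 250 bases before the annotated start, 5′ to 3′ on the strand of the gene. They lie at chr14:54966608-54966857 (minus strand) for Myh6, chr14:54994627-54994876 (minus) for Myh7, chr11:5898783-5899032 (minus) for Myl7 and chr2:114052876-114053125 (minus) for Actc1. Capitals mark matches to motifs of factors known from heart muscle, searched on both strands: GATA sites (GATA after A or T and before A or G), the M-CAT element (CATTCC), the Nkx2-5 motif (TNAAGTG), the CArG box of serum response factor and the MEF2 site.
Myh6: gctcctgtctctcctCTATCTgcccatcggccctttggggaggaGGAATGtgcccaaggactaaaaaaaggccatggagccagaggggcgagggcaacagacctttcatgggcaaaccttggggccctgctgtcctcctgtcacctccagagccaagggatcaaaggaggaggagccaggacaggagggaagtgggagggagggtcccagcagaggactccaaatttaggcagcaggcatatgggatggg
Myh7: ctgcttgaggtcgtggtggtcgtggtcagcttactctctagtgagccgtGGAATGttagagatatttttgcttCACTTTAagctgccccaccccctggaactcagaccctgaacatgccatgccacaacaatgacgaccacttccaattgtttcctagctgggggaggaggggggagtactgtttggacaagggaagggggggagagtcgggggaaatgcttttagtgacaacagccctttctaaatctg
Myl7: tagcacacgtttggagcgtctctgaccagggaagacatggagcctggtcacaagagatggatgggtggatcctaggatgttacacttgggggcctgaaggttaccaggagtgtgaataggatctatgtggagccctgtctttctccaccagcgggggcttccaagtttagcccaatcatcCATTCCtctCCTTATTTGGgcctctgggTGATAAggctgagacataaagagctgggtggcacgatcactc
Actc1: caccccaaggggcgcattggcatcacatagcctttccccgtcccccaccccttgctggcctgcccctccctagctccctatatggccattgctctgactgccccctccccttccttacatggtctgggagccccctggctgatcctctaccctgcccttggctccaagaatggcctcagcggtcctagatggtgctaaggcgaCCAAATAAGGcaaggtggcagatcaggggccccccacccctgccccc
No 2 matches overlap in the printed sequences. A GATA match was found in 5 of the 9 windows (Myh6, Myl7, Tnnt2, Pln and Nppa), against 27.1% of 27025 promoters of the same length. An M-CAT match was found in 4 (Myh6, Myh7, Myl7 and Tnnt2), against 12.6%, and an Nkx2-5 match in 2 (Myh7 and Nppa), against 10.0%. The CArG box was found in 2 (Myl7 and Actc1), against 1.41%, and a MEF2 site in 0, against 3.03%. These are matches of letters in a short window, and Tnni3 and Myl4 had none.

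Other genes of the cardiac sarcomere and Z-disc were lower in most cases without passing the test. Of 22 with a probe set, 0 were called in either direction, against 1.90% of all genes called lower and 3.70% higher. A lower mean was seen in 18, against 57.0% of all genes, and the median difference was -0.23 log2 units. The lung cell markers had the same median, -0.23, and all 10 of them had a lower mean, so this lowering was not particular to sarcomere genes. At an unadjusted p under 0.05, 9 were lower and 1 higher, against 11.0% of all genes lower and 1456 of 12393 higher. Tcap, the titin cap protein of the Z-disc, read 7.09, 7.54 and 7.34 in bleomycin lungs and 8.79, 8.55 and 7.62 in saline lungs, so that all bleomycin arrays lay below all saline arrays. It averaged 7.32 ± 0.23 in bleomycin lungs and 8.32 ± 0.62 in saline lungs (SD, n = 3 each, limma adjusted p = 0.0814). Unlike the 10 genes, Tcap was lowest among saline arrays in C. It passed when arrays were centred on ribosomal protein genes (adjusted p = 0.0434) and without saline C (0.0108). Tnnc1, the calcium-binding troponin of heart and slow muscle, read 6.11, 7.39 and 7.37 in bleomycin lungs and 7.96, 7.23 and 8.20 in saline lungs, a difference of -0.84 ± 0.36 (SE, adjusted p = 0.228). Smpx, a small protein of striated muscle, differed by -0.62 ± 0.32 (SE, adjusted p = 0.308). In the other direction, Ankrd1, a stretch-responsive protein of cardiac muscle and other cells, differed by 0.61 ± 0.33 (SE, adjusted p = 0.334) and read 9.30 in bleomycin D, against 7.99 and 8.04 in bleomycin E and F and 7.46 to 8.10 in saline lungs. The 1 gene higher at an unadjusted p under 0.05 was Tpm1, a tropomyosin of striated and smooth muscle, named after its values were seen. It read 11.34, 10.60 and 10.77 in bleomycin lungs and 10.42, 10.29 and 10.19 in saline lungs, all bleomycin arrays above all saline arrays, a difference of 0.60 ± 0.19 (SE, adjusted p = 0.108).

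**Figure D3:**
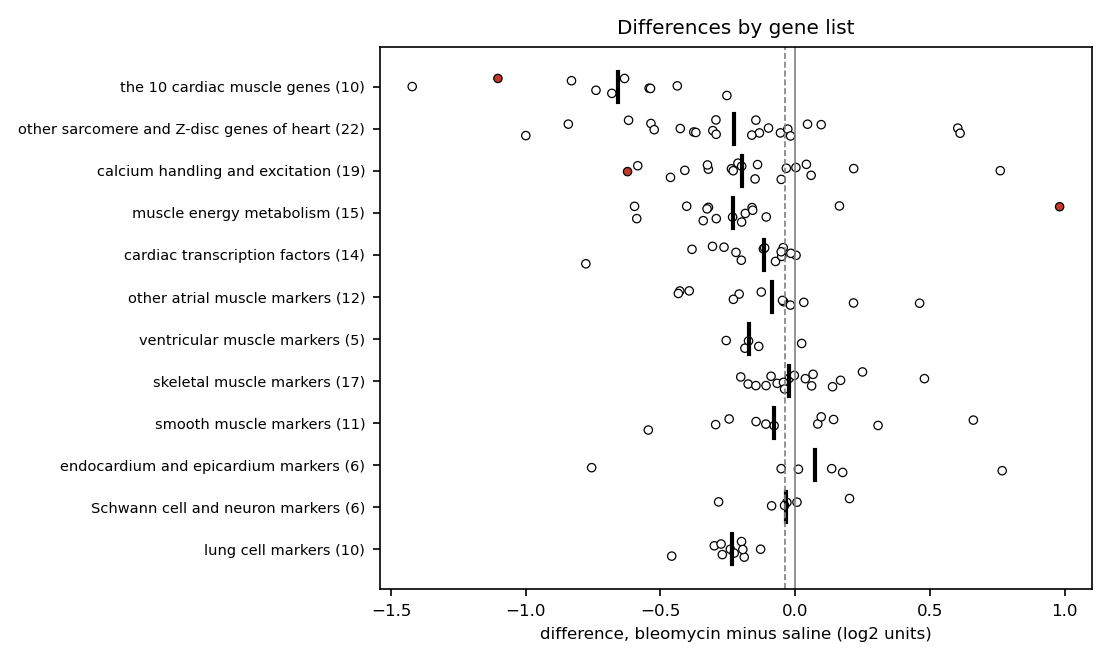
Difference between bleomycin and saline lungs (log2 units) of each gene in the 10 cardiac muscle genes and 11 other lists, 1 point per gene with the number of genes in brackets, filled where the adjusted p is under 0.05. Thick bars are list medians (-0.66 for the 10 genes, -0.23 for other sarcomere genes, -0.02 for skeletal muscle), and the dashed line is the median of all genes, -0.04. Vertical scatter within a list only separates the points.

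Genes of calcium release and excitation had a median difference of -0.20 log2 units over 19. By the test 1 was lower and 0 were higher (1.90% and 3.70% of all genes). The gene called was Asph, which encodes aspartyl hydroxylase and, from the same locus, junctin of the sarcoplasmic reticulum. It read 7.60, 7.56 and 7.44 in bleomycin lungs and 8.16, 8.17 and 8.14 in saline lungs, and fell by 0.62 ± 0.10 (SE, limma adjusted p = 0.014). This rests on the brightest probe set: in the mean of all probe sets Asph differed by -0.13 (adjusted p = 0.434), and it did not pass without saline A (0.0547) or bleomycin F (0.067). Ryr2, the calcium release channel of heart muscle, read 4.76, 4.92 and 5.24 in bleomycin lungs and 5.59, 5.39 and 5.69 in saline lungs, a difference of -0.58 ± 0.15 (SE, adjusted p = 0.065, and 0.0375 with the trended robust prior). Popdc3, a membrane protein of striated muscle, differed by -0.46 ± 0.11 (SE, adjusted p = 0.0540). It passed with array weights (0.0311), with repeated quantile normalization (0.0429) and in the fit on means of probe sets (0.0339). Hrc, a calcium-binding protein of the reticulum, differed by -0.41 ± 0.14 (SE, adjusted p = 0.144). Gja1, the gap junction protein connexin of many cell types, differed by 0.76 ± 0.20 (SE, adjusted p = 0.0714), and passed without bleomycin D (0.0295) and with array weights (0.0255).

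In muscle energy metabolism, 0 of 15 genes were lower and 1 higher by the test (1.90% and 3.70% of all genes). The median difference was -0.23 log2 units, the same as for the lung cell markers. Mb, which encodes myoglobin, read 8.15, 9.28 and 9.18 in bleomycin lungs and 9.59, 8.71 and 10.09 in saline lungs, a difference of -0.60 ± 0.38 (SE, limma adjusted p = 0.412). It shared with most of the 10 genes a low bleomycin D, a low saline B and a high saline C. Ckmt2, the mitochondrial creatine kinase of heart and muscle, differed by -0.59 ± 0.29 (SE, adjusted p = 0.294), and Fabp3, the fatty acid binding protein of heart, by -0.40 ± 0.24 (adjusted p = 0.376). Cox8b, a cytochrome oxidase subunit of heart and muscle, differed by -0.34 ± 0.19 (adjusted p = 0.334). Lpl, the lipoprotein lipase, which macrophages and fat cells also make, read 12.79, 12.61 and 12.51 in bleomycin lungs and 11.28, 11.79 and 11.90 in saline lungs. It rose by 0.98 ± 0.17 (SE, adjusted p = 0.0179). Without bleomycin F its adjusted p was 0.0506.

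Cardiac transcription factors gave 0 calls among 14 (3 lower and 0 higher at an unadjusted p under 0.05), with a median difference of -0.12 log2 units. Of all genes, 11.0% were lower and 1456 of 12393 higher at that unadjusted p. Tbx3, a transcriptional repressor expressed in the conduction system and in lung mesenchyme, differed by -0.78 ± 0.27 (SE, limma adjusted p = 0.147). Gata6, shared by heart and lung epithelium, differed by -0.38 ± 0.12 (SE, adjusted p = 0.119). The cardiac T-box factor Tbx20 differed by -0.31 ± 0.12 (SE, adjusted p = 0.188), and Srf, the serum response factor, by -0.26 ± 0.15 (adjusted p = 0.342). Among 12 other genes linked to atrial muscle, 0 were called and the median was -0.09. At an unadjusted p under 0.05, 2 were lower and 1 higher, against the same shares of all genes. The largest difference was that of Myl1, an essential light chain of fast skeletal muscle and embryonic heart, in the other direction. It read 6.68, 6.82 and 6.79 in bleomycin lungs and 6.26, 5.97 and 6.67 in saline lungs, all bleomycin arrays above all saline arrays, a difference of 0.46 ± 0.17 (SE, adjusted p = 0.166). Pam, an enzyme of peptide amidation abundant in atrial granules, differed by -0.43 ± 0.44 (SE, adjusted p = 0.617) and by 0.03 without bleomycin D. Nr2f2, a factor of atrial and venous identity, differed by -0.43 ± 0.17 (SE, adjusted p = 0.187). Tbx5, a factor of the atrium and of lung mesenchyme, read 8.04, 8.01 and 7.98 in bleomycin lungs and 8.34, 8.50 and 8.37 in saline lungs, a difference of -0.39 ± 0.10 (SE, adjusted p = 0.0685) that passed with array weights (0.0358) and with repeated quantile normalization (0.0495), and was -0.19 in the mean of its probe sets (0.350).

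Markers of ventricular, skeletal and smooth muscle gave 0 calls in limma at an adjusted p of 0.05. Myl2, the ventricular regulatory light chain, read 4.87, 4.85 and 4.80 in bleomycin lungs and 5.07, 5.08 and 4.88 in saline lungs, and differed by -0.17 ± 0.11 log2 units (SE, limma adjusted p = 0.39). Its bleomycin arrays all lay below its saline arrays. The other ventricular differences were -0.26 for Irx4, -0.19 for Myl3 (0.00 in the mean of its probe sets) and -0.13 for Hey2. Of 5 ventricular, 17 skeletal and 11 smooth muscle markers, the median differences were -0.17, -0.02 and -0.08. At an unadjusted p under 0.05, 0, 0 and 1 were lower, and 0, 0 and 1 higher. Of all genes, 11.0% were lower and 1456 of 12393 higher at that unadjusted p. The smooth muscle myosin Myh11 differed by -0.54 ± 0.19 (SE, adjusted p = 0.139) and the smooth muscle actin Actg2 by 0.66 ± 0.25 (adjusted p = 0.177). Tagln, another smooth muscle gene, differed by 0.31 ± 0.28 (SE, adjusted p = 0.567) and by -0.07 without bleomycin D, and Cnn1 by -0.29 ± 0.18 (adjusted p = 0.385). Skeletal alpha actin, Acta1, stood at 6.42 in bleomycin D, against 4.76 and 4.89 in bleomycin E and F and 4.83 to 4.93 in saline lungs. Its difference was 0.48 ± 0.38 (SE, adjusted p = 0.506) and -0.05 without bleomycin D. Mylpf, the regulatory light chain of fast fibres, differed by 0.25, Myh2 by -0.20 and Tnni1 by -0.17. Detection calls are not used here, so whether a dim probe set such as that of Myl2 lay above background is not known.

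Neighbouring cell types of the heart and veins were read by 6 markers of endocardium and epicardium (mesothelium) and 6 of Schwann cells and neurons, with 0 called in each and medians of 0.07 and -0.03 log2 units. At an unadjusted p under 0.05, 1 gene of the first group was lower, Npr3, and 0 of the second, against 11.0% of all genes. Npr3, a receptor that clears natriuretic peptides such as the product of Nppa, read 8.64, 9.15 and 8.83 in bleomycin lungs and 9.77, 8.88 and 10.24 in saline lungs. Its difference was -0.76 ± 0.31 (SE, limma adjusted p = 0.202), and -1.13 without saline B (adjusted p = 0.0313). Msln, a mesothelial gene, differed by 0.77 ± 0.34 (SE, adjusted p = 0.237), and by 0.32 without saline B. Upk3b, also mesothelial, differed by 0.18 (-0.26 without saline B), and the endocardial factor Nfatc1 by 0.14. Among Schwann cell and neuron markers the differences were -0.28 for Prph, 0.20 for S100b, -0.09 for Sox10 and -0.04 for Snap25.

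The genes whose values over the 6 arrays were most like the mean of the 10 were only in part genes of heart muscle. Likeness was Pearson's r with that mean over the 6 arrays, among 1296 other genes whose arrays spanned at least 1 log2 unit. It is a description, since the arrays share the group difference and any difference in RNA quality. The 15 highest had r of 0.951 to 0.996. They included 3 genes of the lists above: Csrp3, the muscle LIM protein (r = 0.982), Npr3 (0.961) and Ckmt2 (0.951). The other 12 were Myo5c, an epithelial myosin motor (0.996), Akap8 (0.977), Elapor1 (0.974), the splicing kinase Clk4 (0.973), Supt20 (0.970), Arglu1 (0.969), the microtubule protein Clasp2 (0.964), Gpm6a (0.963), Gprasp1 (0.958), Fam193b (0.954), the splicing regulator Ptbp2 (0.952) and the corepressor Tle2 (0.951). Csrp3 read 7.39, 8.02 and 7.79 in bleomycin lungs and 8.32, 7.82 and 8.63 in saline lungs, a difference of -0.52 ± 0.23 log2 units (SE, limma adjusted p = 0.226). Of the 15, only Ptbp2 was called. It fell by 0.65 log2 units (adjusted p = 0.0421), and it did not pass in the mean of its probe sets (0.0727) or in any fit with 1 array left out (0.0517 to 0.111). Akap8 passed in 4 of the 12 other fits and Elapor1 in 1, without saline B (0.0138).

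**Figure D4:**
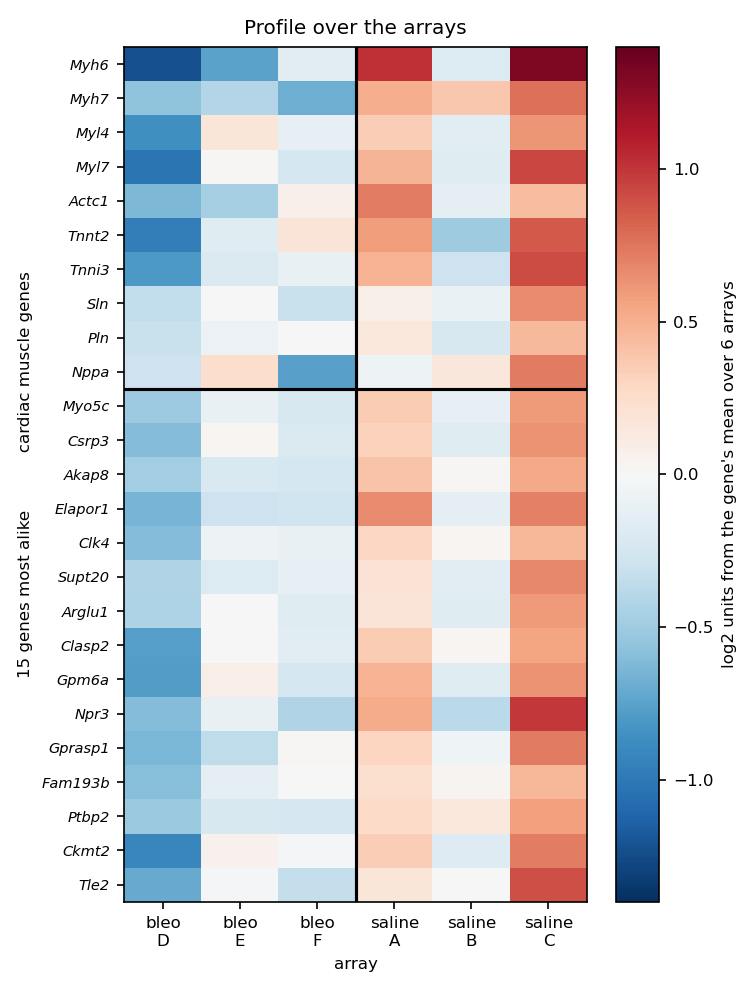
Log2 units from each gene's own mean over 6 arrays, for the 10 cardiac muscle genes (above the line) and the 15 genes with the most similar profile (below), with bleomycin arrays D, E and F on the left and saline arrays A, B and C on the right. Saline C is the highest array in 9 of the 10 cardiac genes and bleomycin D the lowest in 8, and saline B stands apart from saline A and C.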

How the data were processed

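Whole-lung RNA of 6 mice, 3 given bleomycin and 3 given saline, was measured on one Affymetrix MOE430A array each. The authors deposited 1 log2 value per probe set and array, made by RMA with quantile normalization, per the submitters' processing notes and design text. The sources used here name no software version or chip definition. That the base is 2 follows from the values, whose maximum exceeds the natural log of the scanner limit and lies below its log2.

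Of 22690 probe sets, 64 controls were left out and 22626 were tested with limma 3.58.1 (R 4.3.3), by lmFit and eBayes with the group as the only term, Benjamini-Hochberg adjustment over all of them and a threshold of 0.05. Symbols came from GEO's platform annotation. For 20351 probe sets the Entrez ID matched RefSeq's table (GRCm38.p6), and the symbol given there was used, whether or not it differed. Probe sets of several symbols (691) named no gene. Differences are bleomycin minus saline with the moderated standard error. The fit was tested on simulated data.

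The 10 genes, the other lists and the alternatives were chosen with earlier results of these data known. Named genes were the 10, the called genes and up to 4 largest differences of each list, and the 15 most alike over the arrays. Genes of the lists without a named probe set are not reported. Array letters are unique to a mouse, so nothing pairs mice across groups. The alternatives were a filter on dim probe sets, a trended robust prior, centring on ribosomal protein genes, array weights, repeated quantile normalization, the mean of all probe sets of a gene, a threshold of 0.01 and leaving out each array. Python 3.11.15 and matplotlib 3.10.9 drew the figures.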

Additional observations from a re-analysis of the deposited data

How the results depend on the processing

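The median difference of the 10 genes stayed below 0 in every fit, between -0.98 (without saline B) and -0.42 (without saline C) with 1 array left out, and all 10 had a lower mean in each of these fits. With 1 array left out, 1 to 2 of the 10 were called, and the second was Myh6 without saline B. Over all genes, 185 to 550 were called with 1 array left out, against 694 with all arrays, and 22 to 165 were called lower, against 236. With a threshold of 0.01 these counts were 163 and 20, and Myh7 was still called. Fits with an array left out have fewer samples. Centring on ribosomal protein genes moved their median by 0.06 log2 units. No paired analysis was possible because each array letter belongs to a single mouse. Signal over background could not be examined, which limits what can be said of probe sets that the filter on dim values removed, among them those of Ryr2, Smpx, Myl2, Acta1 and Tnnc2.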

Other observations

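Skeletal muscle genes on bleomycin D were looked at after their values were seen. Besides Acta1, Tnnc2, the calcium-binding troponin of fast skeletal muscle, read 5.98 in bleomycin D, against 4.92 and 4.88 in bleomycin E and F and 5.04 to 5.18 in saline lungs, and Actn3, the Z-disc protein of fast fibres, read 6.58, against 6.00 and 5.99 in bleomycin E and F and 6.04 to 6.24 in saline lungs. Over the 17 skeletal muscle markers, bleomycin D was the highest of the 6 arrays for 8 and not for the other 9, among them the myosins Myh1, Myh2 and Myh4. In those 8, its lead over the next array ran from 0.06 log2 units (Tnnt3) to 1.49 (Acta1). Of the 10 cardiac genes, 8 were lowest on bleomycin D. The shares of all genes that were highest or lowest on bleomycin D were not counted, and that array stood apart on the first principal component.

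In a likeness measure chosen after seeing the data, each group's mean was taken out first, so that only differences between mice of a group entered. Of the 15 most similar genes 5 were shared with the first measure, and 3 stood in the lists above: Mb (r = 0.990), Csrp3 (0.983) and Ckmt2 (0.958). The highest r was that of Myo5c (0.990), and Akap8 had 0.989. The others included Rab5c (0.975), Lrp2 (0.968), Bik (0.968) and Pgd (0.959), which stand in none of the lists and exceeded Ckmt2. Unlike the 10 genes, Lrp2 and Pgd were called higher in bleomycin lungs, by 0.95 and 0.64 log2 units (limma adjusted p = 0.0210 and 0.0478).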
